A study of Sus scrofa with 6 samples.

Results

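The paraoxonase genes PON1, PON2 and PON3 are 3 neighbouring paralogues on pig chromosome 9, downstream of the imprinted genes SGCE and PEG10. Their CpG methylation was read from whole genome bisulfite sequencing of whole pig embryos at embryonic day 21, all of the Landrace x Yorkshire x Duroc cross. The 3 control embryos (CN) were labelled untreated wild-type embryos. The 3 parthenotes (PA) were grown from oocytes activated by electric pulses and placed into the oviducts of surrogate gilts, so that they hold maternal genomes and no paternal one. The labels do not say whether embryos of a group shared a litter, and p-values then measure only the spread between these embryos. A whole embryo mixes many cell types, and the tables hold no expression data by which the tissue label could be checked.

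A CpG belonged to the family where the deposited annotation placed it in, or directly beside, one of the 3 genes or in its promoter. That gave 701 CpGs of 14091 in the deposited interval: 253 for PON1, 226 for PON2 and 222 for PON3. Of these, 604 had at least 10 reads in every embryo and were tested singly (229, 184 and 191). In the Sscrofa11.1 build all 3 genes lie on the minus strand: PON1 spans chr9:74943646-74974720, PON3 spans chr9:74983040-75017947 and PON2 spans chr9:75027270-75051441. The spacers between them are 8319 bp (PON1 to PON3) and 9322 bp (PON3 to PON2). The annotation gave PON1 24 promoter, 45 exon and 193 intron CpGs, PON2 50, 36 and 150, and PON3 12, 47 and 153. Exon sets include the untranslated regions. Some promoter CpGs also lie in an exon or intron (9 in PON1, 18 in PON2, 0 in PON3).

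Paraoxonases are calcium-dependent lactonases. PON1 and PON3 are made mainly in the liver and circulate on high-density lipoprotein, where PON1 also hydrolyses organophosphates such as paraoxon. PON2 is a membrane-bound intracellular enzyme found in most tissues and is known for limiting oxidative stress. In mouse, Pon2 and Pon3 have been described as expressed mainly from the maternal allele in extraembryonic tissue. Promoters within CpG islands are usually unmethylated whether or not the gene is active, while CpGs of gene bodies and of CpG-poor promoters are usually methylated in somatic tissue.

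Summed over all CpGs of the interval, the C or T counts were 380163 to 406443 per embryo, and a read counts at each CpG it covers. The median CpG had 27 to 29 reads. Control 1 stood apart: its mean level over the interval was 75.2%, against 83.2% to 85.6% in the other 5 embryos. In the family its mean level was 70.5%, against 77.4% to 80.5%. Both means give equal weight to each CpG with at least 10 reads in every embryo. The parthenote label was matched by the known imprinted promoter of this interval. The SGCE promoter stood at 47.9% ± 4.34 in controls against 95.4% ± 2.71 in parthenotes (SD over 3 embryos each; adjusted p = 1.2e-05, edgeR's quasi-likelihood test). Unless equal weights are stated, levels are methylated reads over total reads, and 95% Wilson intervals cover counting error only.

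The 3 paralogues differed most at their starts. PON2 began in a long unmethylated stretch, PON1 had a short low patch that ended at its annotated start, and PON3 had no such stretch. In PON2, 69 consecutive CpGs from chr9:75050548-75051807 each had a mean below 25%. This run covers 1261 bp, from 366 bp upstream to 893 bp inside the gene, and holds 14 upstream, 18 5′ UTR, 5 exonic and 32 intronic CpGs. Its level was 1.82%, 2.61% and 1.47% in controls 1 to 3, and 1.33%, 1.40% and 1.88% in parthenotes 1 to 3. All 6 embryos were thus nearly unmethylated there and the groups overlapped. Between 1070 and 1355 reads stood behind each value, and the Wilson intervals reached from 0.842% to 3.72%. The run had sharp edges: the CpG next to it inside the gene was at 37.1% and the one upstream at 43.5%. It was the only run of at least 5 CpGs under 25% in the family, of 16 in the interval, and ranked 4 of 16 both by CpGs and by length. These runs were defined after the levels had been seen and carry no test.

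The level of PON2 climbed again within a short distance on both sides. From 1000 to 500 bp upstream its 6 CpGs were at 62.5% to 81.3%. Inside the gene, the 3 CpGs from 1000 to 1500 bp were at 56.5% to 73.5%, and the 4 CpGs from 1500 to 2000 bp at 90.0% to 97.2%. The 5′ UTR of PON2, with 18 CpGs, had the lowest level of any annotated class of the family, 0.242% to 1.07% over the embryos. The 17 coding-exon CpGs of the same gene were at 70.1% to 80.6%, with 5 of them inside the unmethylated run. The 13 exon CpGs over 2000 bp from the start, untranslated regions included, were at 83.9% to 90.7%.

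**Figure D1:**
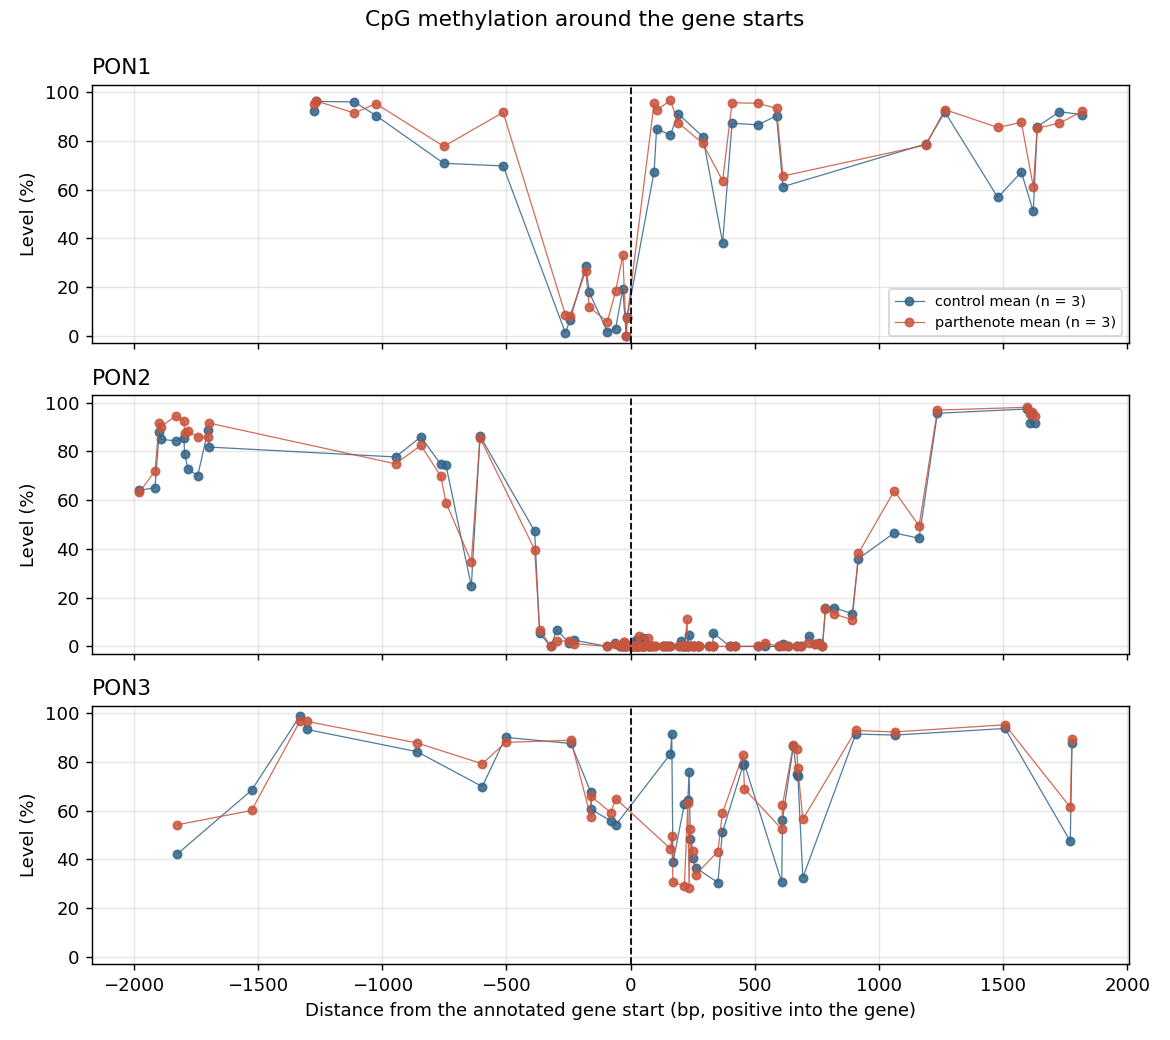
CpG methylation level (%) against the distance from the annotated start of each gene (bp, positive into the gene); points are single CpGs, as the mean of 3 controls (blue) and of 3 parthenotes (red). PON2 is near 0 from 366 bp upstream to 893 bp inside the gene, PON1 is low only in the 262 bp before its start, and PON3 stays intermediate.

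PON1 was low over a far shorter stretch. The 9 CpGs in the 500 bp before its start, all within 262 bp of it, were at 10.4%, 9.21% and 11.9% in controls and 8.70%, 12.3% and 21.1% in parthenotes, on 128 to 152 reads. Parthenote 3 was the highest and the other 5 embryos lay close together. Of these 9 CpGs, 5 carried a sign of a sequence variant or had a strand without a call in some embryo. The 4 without such a sign averaged 13.5% over the 6 embryos. Directly inside the gene the level was high: the 4 CpGs of the first 250 bp were at 71.6%, 89.2% and 81.3% in controls and 86.8%, 97.3% and 94.6% in parthenotes. All 6 embryos therefore stepped up across the start. Upstream, the 2 CpGs from 1000 to 500 bp before the start were at 55.1% to 86.5% and the 4 CpGs from 1500 to 1000 bp at 89.3% to 97.6%. The low patch is thus bounded on both sides by methylated CpGs.

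PON3, the other serum paraoxonase, was methylated before its start and intermediate behind it. The 5 CpGs in the 250 bp upstream were at 65.6%, 79.6% and 71.1% in controls and 68.4%, 70.2% and 80% in parthenotes. No tested PON3 CpG had a mean below 20%, against 6 of 229 in PON1 and 48 of 184 in PON2. Over the other 11755 tested CpGs of the interval, 2.98% were that low. Around the start (500 bp on either side) PON2 held 56 CpGs per kb, PON1 16 and PON3 18. The CpG-dense start was therefore the unmethylated one, as a description of 3 genes.

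PON1 has a second promoter in the annotation. The promoter of its upstream-most start, shared by 5 annotated transcripts, held 18 CpGs (chr9:74974559-74975996). Its level was 48.0%, 53.5% and 53.8% in controls and 53.1%, 59.1% and 64.6% in parthenotes. An internal start of 1 transcript had 6 promoter CpGs (chr9:74967761-74968991), at 73.3%, 86.4% and 70.6% in controls and 77.2%, 86.2% and 90.5% in parthenotes. The internal promoter was the more methylated in every embryo.

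Over all their annotated CpGs, the promoters were ordered PON2, PON1, PON3 from low to high. PON2 was at 29.6%, 43.3% and 40.6% in controls and 30.8%, 36.4% and 32.7% in parthenotes. PON1 was at 58.4%, 66.1% and 61.0% in controls and 62.9%, 68.9% and 75.3% in parthenotes. PON3 was at 71.6%, 82.0% and 77.0% in controls and 86.1%, 74.9% and 87.5% in parthenotes. The 3 ranges do not overlap for PON2 against either other gene. Among 17 promoters of the interval ordered from low to high, PON2 was 4, PON1 was 10 and PON3 was 15. The promoters nearest on either side were PPP1R9A, at 41.3% ± 4.48 in controls and 40.5% ± 2.04 in parthenotes, and ASB4, at 91.0% ± 4.11 and 92.5% ± 1.84 (SD, n = 3 each). In PPP1R9A, 67 of 107 CpGs carried a sign of a variant or had a strand without a call. Its other 40 CpGs were at 60.4% in controls and 61.8% in parthenotes. COL1A2, ranked lowest, averaged 27.4% over the 6 embryos, and 42.1% without its 22 such CpGs of 43. The ranks use all CpGs.

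The paralogues were compared within each embryo, by an exact 2-sided sign-flip permutation test over the 6 embryos, with Benjamini-Hochberg adjustment over 9 pairs. The smallest p that this test allows is 0.03125. The PON1 promoter exceeded that of PON2 by 29.9 ± 7.93 percentage points (SD, n = 6), higher in 6 of 6 embryos (adjusted exact p = 0.0352). The PON3 promoter exceeded that of PON2 by 44.3 ± 8.50 points, also in 6 of 6 (adjusted exact permutation p = 0.0352). PON1 lay below PON3 by 14.4 ± 5.62 points, with all 6 embryos on that side (adjusted exact permutation p = 0.0352). From minus-strand reads alone this difference was -6.90 points and did not pass (adjusted exact permutation p = 0.141). The PON1 set includes the 6 CpGs of the internal start. Its upstream-most promoter alone averaged 55.4% over the 6 embryos, against 65.4% for the set. In a window from 1000 bp before to 500 bp after each gene start, PON1 minus PON2 was 35.2 points and PON1 minus PON3 was -18.7. Both passed (adjusted exact permutation p = 0.0352 for each).

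Exons gave another order. PON1 exons were at 79.3%, 92.3% and 86.9% in controls and 88.6%, 90.1% and 91.5% in parthenotes. PON3 exons were at 70.2%, 84.3% and 81.5% in controls and 81.7%, 80.6% and 83.7% in parthenotes. PON2 exons were at 46.8%, 47.7% and 56.7% in controls and 38.7%, 50.3% and 42.4% in parthenotes. PON2 was the lowest in all 6 embryos. PON1 exceeded PON2 by 41.0 ± 8.35 points and PON3 exceeded PON2 by 33.3 ± 8.36 points, each in 6 of 6 embryos (adjusted exact permutation p = 0.0352 for each). PON1 exceeded PON3 by a smaller but steady 7.77 ± 1.47 points, between 5.45 and 9.48 in single embryos (adjusted exact permutation p = 0.0352).

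Introns differed less. PON1 introns were at 77.1%, 87.4% and 85.1% in controls and 85.2%, 86.5% and 87.6% in parthenotes. PON3 introns were at 76.0%, 87.5% and 84.5% in controls and 87.8%, 84.4% and 87.8% in parthenotes. PON2 introns were at 69.2%, 75.0% and 72.1% in controls and 75.1%, 76.0% and 78.5% in parthenotes. PON2 lay below PON1 by 10.5 ± 1.93 points and below PON3 by 10.3 ± 2.52 points, each in 6 of 6 embryos (adjusted exact permutation p = 0.0352 for each). PON1 and PON3 introns differed by 0.15 ± 1.57 points, with PON1 higher in 3 of 6 embryos (adjusted exact permutation p = 0.844), the single embryos lying between -2.58 and 2.04. With CpGs that carried a sign of a variant left out, PON1 minus PON3 was -1.68 points and passed (adjusted exact permutation p = 0.0312).

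**Figure D2:**
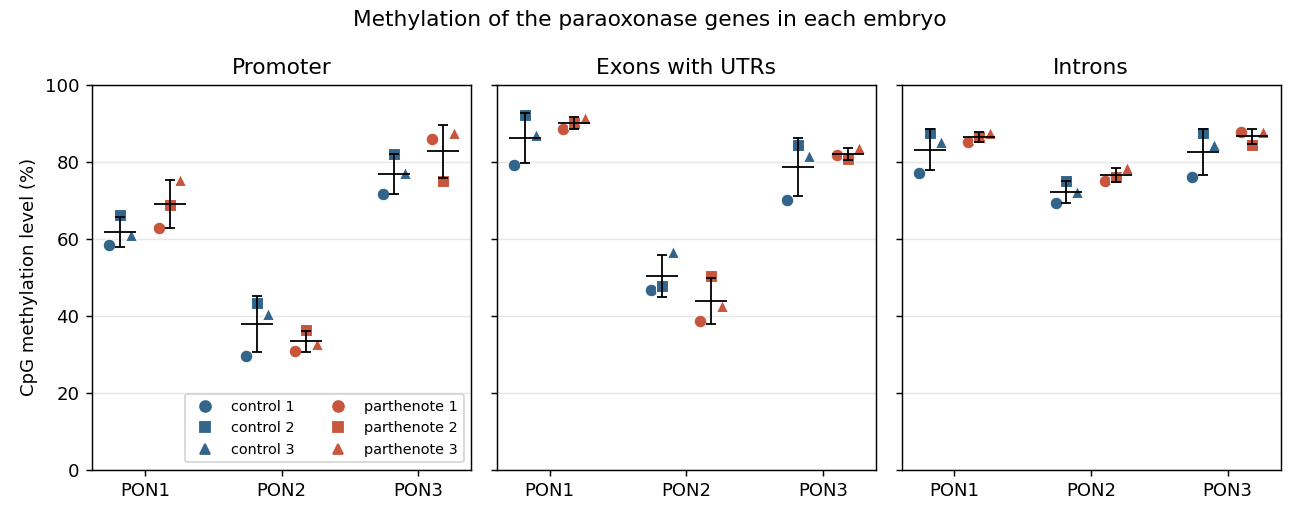
Methylation level (%) of promoter, exons with UTRs and introns of each gene in each embryo (blue controls, red parthenotes, shape by replicate number); horizontal bars are group means and whiskers 1 SD (n = 3). PON2 is lowest in every panel, and control 1 (blue circle) is the lowest control in every set.

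The gap between PON2 and its paralogues was not seen away from the start. With CpGs within 2000 bp of the start left out, exon levels averaged 88.9% in PON1, 87.7% in PON2 and 83.8% in PON3 over the 6 embryos. Intron levels averaged 84.9%, 86.8% and 85.2%. PON2, lowest before, then lay between or above the others: its introns exceeded those of PON1 by 1.95 ± 0.89 points in 6 of 6 embryos. That difference did not pass adjustment over the 6 pairs (adjusted exact permutation p = 0.0938). Nor did PON1 exons against PON3 exons, higher by 5.16 ± 1.82 points in 6 of 6 embryos (adjusted exact permutation p = 0.0938). The other 4 pairs had adjusted exact permutation p of 0.125 to 0.844. Of the PON2 CpGs, 23 of 36 in exons and 40 of 150 in introns lay within that distance, against 10 of 45 and 8 of 193 in PON1. This split was chosen after the levels had been seen.

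**Figure D3:**
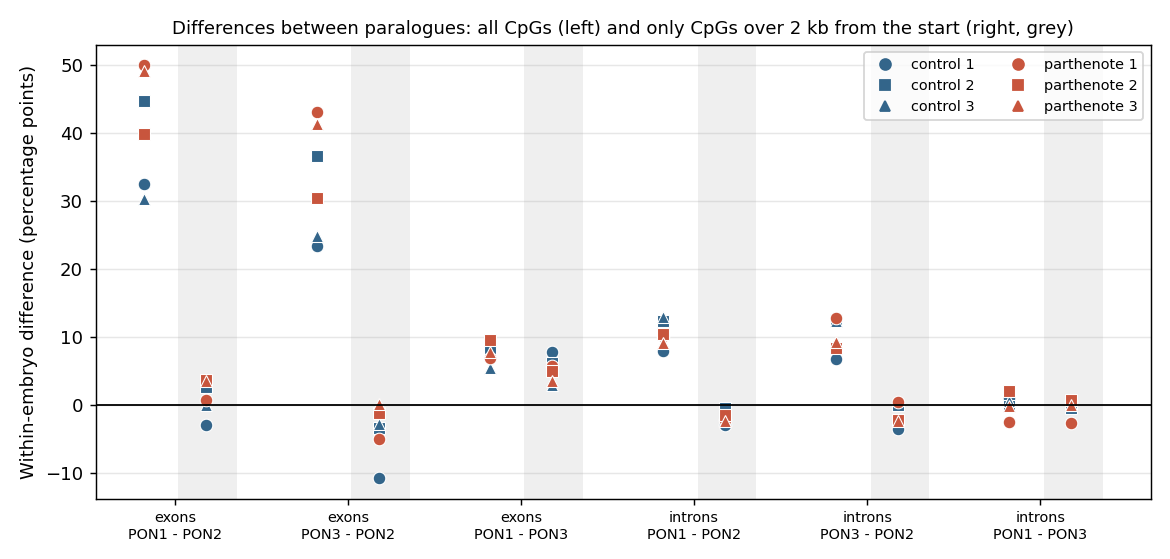
Within-embryo difference in level between paralogues (percentage points), for all CpGs (left points) and for CpGs over 2 kb from the gene start (right points, grey band); each point is 1 embryo. The exon differences of 41.0 and 33.3 points against PON2 fall to 1.28 and -3.88 points in the grey bands.

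Along the gene bodies, 1 further dip stood out in PON1. A pair of adjoining 500 bp windows of an intron, about 18 kb into the gene, held 8 CpGs with no sign of a variant. The 3 CpGs of chr9:74956000-74956499 were at 40.7%, 59.5% and 55.7% in controls and 60.4%, 56.5% and 54.5% in parthenotes. The 5 CpGs of chr9:74956500-74956999 were at 37.1%, 42.3% and 63.2% in controls and 58.7%, 45.7% and 50.3% in parthenotes. Both windows were intermediate in all embryos and their groups overlapped (adjusted p = 0.995 for both, edgeR's quasi-likelihood test). They were named after their values had been seen. The annotated exonic CpG on their far side from the start, chr9:74955674, was at 88.9% in controls and 91.7% in parthenotes.

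**Figure D4:**
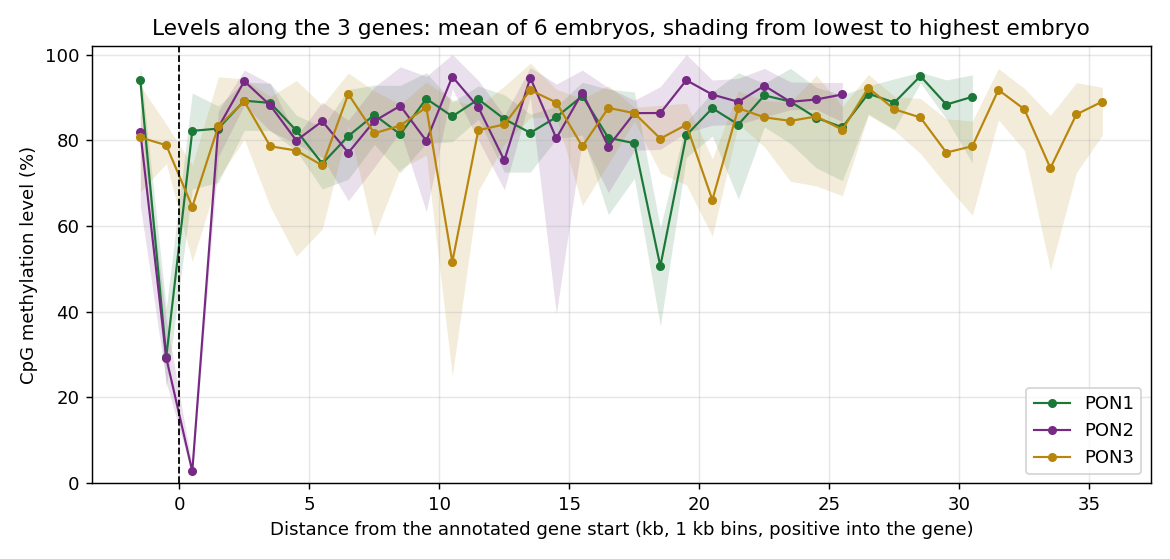
Methylation level (%) in 1 kb bins by distance from the annotated start (kb, positive into the gene); lines are the mean of 6 embryos and shading runs from the lowest to the highest embryo. All 3 genes lie mostly above 70% outside the start, with a PON1 bin of 7 CpGs at 50.6%; the PON3 bin at 51.6% holds 1 CpG, and the PON2 bin from 19 kb holds 1 CpG with no read in control 1.

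Controls and parthenotes were then compared. Of the 9 sets (promoter, exons and introns of 3 genes), 7 were higher and 2 lower in parthenotes, 8 overlapped between the groups, and 0 of 9 were called at an adjusted p under 0.05. Of all 48 sets of the interval, 6.25% were called. For direction, parthenotes were also higher in 1492 of the 1911 tested 500 bp windows of the interval. The overlap of groups was not compared with that of the other sets. At an unadjusted p under 0.05 edgeR's quasi-likelihood test gave 0 of 9, as did limma and DESeq2. Adjusted p was 0.718 for 8 sets and 0.755 for PON3 exons.

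The PON1 promoter was at 61.8% ± 3.94 in controls and 69.0% ± 6.19 in parthenotes (SD, n = 3 each). The difference of 7.22 points was 4.08 without parthenote 3. The PON3 promoter was at 76.9% ± 5.17 and 82.8% ± 6.88, and at 82.4% and 84.8% over the 10 CpGs without a sign of a variant. Its difference of 5.95 points was 3.50 with the authors' totals corrected for opposite-strand A, 3.63 without parthenote 3 and 9.90 without parthenote 2. The PON2 promoter lay the other way, at 37.8% ± 7.27 and 33.3% ± 2.82, a difference of -4.52 points that was -1.77 without control 2. None of these differences exceeded the spread between embryos by edgeR's test. PON2 introns were the single set of the 9 whose groups did not overlap. They were at 72.1% ± 2.91 in controls and 76.5% ± 1.78 in parthenotes, a difference of 4.44 points (adjusted p = 0.718, edgeR). The nearest embryos were control 2 at 75.0% and parthenote 1 at 75.1%. Without CpGs that carried a sign of a variant, the PON2 intron difference was 3.33 points, at 73.6% in controls and 76.9% in parthenotes. Introns of PON1 were at 83.2% ± 5.41 and 86.4% ± 1.22, and those of PON3 at 82.7% ± 5.97 and 86.7% ± 1.92. Without CpGs that carried a sign of a variant, the PON3 intron difference was 2.06 points. Exons of PON1 were at 86.2% ± 6.55 and 90.1% ± 1.46, and those of PON3 at 78.7% ± 7.46 and 82.0% ± 1.58.

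Control 1 was the lowest of all embryos in 8 of the 9 sets, as it was over the whole interval. Without it the PON1 exon and intron differences were 0.47 and 0.20 points, from 3.92 and 3.26, the PON3 intron difference was 0.66, from 4.0, and the PON3 exon difference was -0.87, from 3.36. The PON3 promoter difference was 3.33 without it, from 5.95. PON2 went otherwise: its promoter difference was -8.64 without control 1, from -4.52, its exon difference -8.39, from -6.60, and its intron difference 2.98, from 4.44. The low level of control 1 thus moved with the body differences of PON1 and PON3. Control 2 was the highest control in those sets, and without it the differences were 6.99 and 5.36 points in PON1 exons and introns and 6.20 and 6.43 points in those of PON3.

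PON2 exons were at 50.4% ± 5.44 in controls and 43.8% ± 5.91 in parthenotes, a difference of -6.60 points that was -3.47 without control 3 and -4.06 without parthenote 1. The share of exon reads that fell on CpGs under 25% was 44.4%, 47.7% and 35.9% in controls and 56.5%, 42.2% and 52.0% in parthenotes. With each CpG weighted equally, over 31 of the 36 exon CpGs, the exons were at 37.4% ± 1.65 and 37.0% ± 0.43. The difference was then -0.44 points (exact 2-sided permutation p = 0.7, of a smallest possible 0.1). By the same change, over 48 of its 50 CpGs, the PON2 promoter moved from a difference of -4.52 to 1.00 points (exact permutation p = 0.7). With reads summed over CpGs of at least 10 reads, the differences were -8.94 points in PON2 exons and -4.74 in its promoter. The lower parthenote values of PON2 were thus small or absent with equal weights, and the reason was not tested.

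Single CpGs gave no call either. Of 604 tested members, 0 were called by edgeR's quasi-likelihood test at an adjusted p under 0.05, against 0.429% of the 12359 CpGs of the interval. At an unadjusted p under 0.05 there were 9, all higher in parthenotes: 2 in PON1, 2 in PON2 and 5 in PON3. In the whole interval 407 reached that level, 370 higher and 37 lower. limma and DESeq2 called 0 of 604, while 11 passed Fisher's exact test, run on the summed reads of each group and so blind to the differences among embryos of a group.

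The member CpG with the smallest adjusted p, chr9:74993171 in a PON3 intron, was at 29.6%, 85.2% and 24.1% in controls and 89.3%, 95.8% and 92.9% in parthenotes (adjusted p = 0.0801, edgeR). Controls 1 and 3 were low and control 2 was close to the parthenotes. Opposite-strand reads there showed A in 4 of 27 reads of control 1 and 8 of 29 of control 3, and in 0 reads of the other 4 embryos. An A on the opposite strand is what a C-to-T variant gives, and such a variant is scored as unmethylated. The next, chr9:74984144 in the PON3 3′ UTR, was at 32.5%, 86.8% and 45.5% in controls and 86.7%, 90.7% and 88.7% in parthenotes (adjusted p = 0.365, edgeR). The same controls 1 and 3 were low and showed A in 10 of 42 and 6 of 33 opposite-strand reads. These opposite-strand counts were summed over both cytosines of each CpG. Whether a variant lay behind the low values at either CpG was not tested.

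Signs of a variant were present at 19 of 253 CpGs in PON1, 15 of 226 in PON2 and 25 of 222 in PON3. A CpG carried the sign where opposite-strand reads had at least 20% A at 10 or more reads in an embryo, or where a strand had no call. Of 59 such CpGs, 27 came from A reads, and PON3 held 14 of those. The others had a strand without a call, which few reads can also give.

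Windows of 500 bp gave 0 calls of 96 in the family, against 0.314% of 1911 in the interval (edgeR). At an unadjusted p under 0.05 there were 2 of 96, both in PON3, against 47 of 1911 in the interval. limma and DESeq2 also called 0, while 15 passed Fisher's test on summed reads. Parthenotes were higher in 78 of the 96 windows, with a median difference of 2.26 points, and in 1492 of all 1911, with a median of 2.35. By gene, they were higher in 34 of 39 windows of PON1, 18 of 27 of PON2 and 26 of 30 of PON3.

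The window with the largest difference in PON1 was chr9:74973000-74973499, at 71.7% ± 12.7 in controls and 85.6% ± 2.41 in parthenotes (adjusted p = 0.995, edgeR). Of its 5 CpGs, 2 carried a sign of a variant, and the others were at 81.7% and 88.9%. In PON2 it was chr9:75041500-75041999, at 71.0% ± 7.98 and 81.0% ± 24.7 (SD, n = 3 each), where parthenote 2 alone was at 52.5%. Of its 3 CpGs, 1 carried a sign of a variant, and without it the window was at 88.5% and 91.9%, with the lowest embryo at 81.2%. In PON3 it was chr9:75012500-75012999, at 54.8%, 64.4% and 67.7% in controls and 93.3%, 71.4% and 92.3% in parthenotes (adjusted p = 0.57, edgeR). The groups did not overlap in this PON3 window or in the PON1 window, and did overlap in the PON2 window. Overlap was not compared with that of the other windows of the interval. Of the 3 CpGs of the PON3 window, 2 carried a sign of a variant. Its remaining CpG was at 93.2% in controls and 94.1% in parthenotes.

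The lowest windows of each gene lay at the starts: chr9:75051000-75051499 in PON2, with 48 CpGs at 0.12% to 0.955%, chr9:74974500-74974999 in PON1, with 13 CpGs at 25.6% to 51.8%, and chr9:75017500-75017999 in PON3, with 11 CpGs at 14.8% to 62.4%. In the PON3 window 6 of 11 CpGs carried a sign of a variant or had a strand without a call. Depth was low there: the 7 CpGs in the first 250 bp of PON3 held 3 to 84 reads per embryo.

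Embryos of 1 group lay far apart behind the PON3 start. The 13 CpGs from 250 to 1000 bp into the gene were at 53.6%, 74.5% and 63.0% in controls and 79.1%, 51.9% and 79.9% in parthenotes, on 244 to 298 reads each. Parthenote 2 was the lowest of all embryos and parthenotes 1 and 3 the highest, so that the groups overlapped fully. The Wilson interval of parthenote 2, 46.2% to 57.6%, did not reach those of parthenote 1, 73.6% to 83.7%, or parthenote 3, 74.4% to 84.5%. Parthenote 2 was below both other parthenotes at 13 of 13 CpGs, and control 1 was below both other controls at 9 of 13. Of the 13, 1 carried a sign of a variant. Beyond 2000 bp from the start, PON3 introns of parthenote 2 were at 85.8%, against 87.8% and 87.6% in parthenotes 1 and 3. In PON2 the same distance range was at 3.33% to 6.84% in all embryos. This stretch was chosen after its values had been seen and carries no test. A read can count at several of its CpGs, so neither the intervals nor the counts of CpGs test a difference between embryos.

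**Figure D5:**
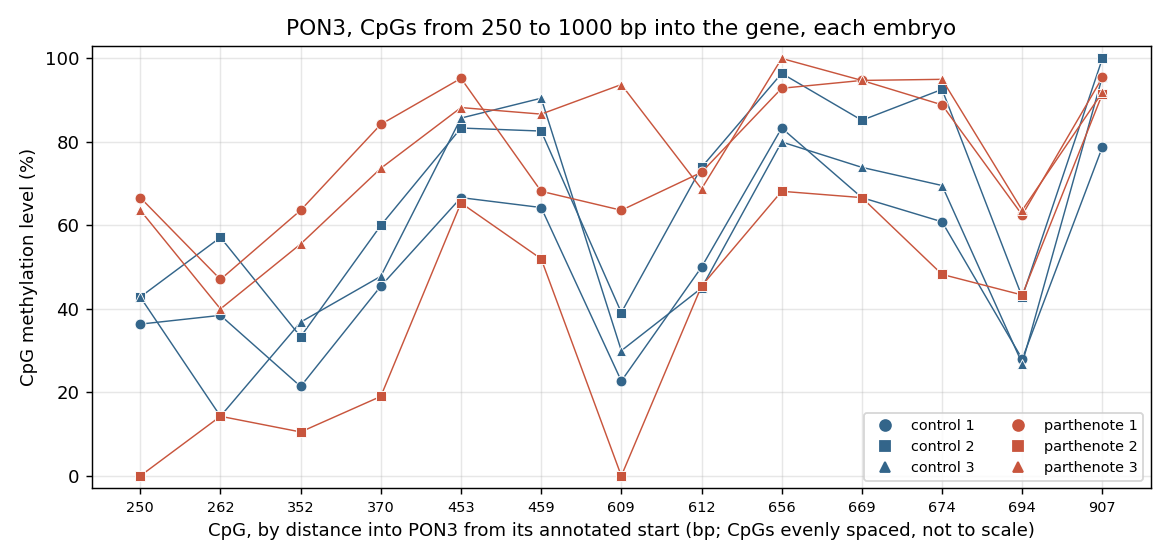
Methylation level (%) of the 13 CpGs from 250 to 1000 bp into PON3, each line 1 embryo (blue controls, red parthenotes, shape by replicate number), CpGs evenly spaced along the x axis and labelled by distance from the start (bp). Parthenote 2 lies below parthenotes 1 and 3 at all 13 CpGs, and the controls lie mostly between them.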

How the data were processed

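Per the submitters' processing notes, reads were aligned with BSMAP 2.87 to Sscrofa11.1. Each deposited table lists, per cytosine, the counts of C and of C or T reads that the authors obtained, the counts of G and A on the opposite strand, an expected (effective) count corrected for opposite-strand A, and the methylation ratio as a fraction with its confidence bounds. The bisulfite conversion rate and any removal of duplicate reads are not given in the sources used here. Incomplete conversion would raise levels, by an amount that may differ between CpGs and between embryos and was not tested. A read over several CpGs adds to the count of every one. Only the 2 raw counts were used for the main values; the expected counts entered as rounded totals in 1 alternative, and the deposited fractions were not used.

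Counts were summed over both strands of each CpG. Gene, region and promoter labels are those of the deposited annotation. Group differences were tested with edgeR 4.0.16 (quasi-likelihood test on methylated and unmethylated counts, R 4.3.3) over the whole interval, with Benjamini-Hochberg adjustment: CpGs needed 10 reads in every embryo, and 500 bp windows and gene sets needed 3 CpGs and 30 reads. A call is an adjusted p under 0.05. limma 3.58.1 (logit with 0.5 added), DESeq2 1.42.0 and Fisher's exact test were alternatives. The fits were tested on simulated data. Paralogues were compared by within-embryo differences. No 2 embryos had nearly identical counts, and all 6 were kept as separate samples.

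The 3 genes and the rules for naming windows (lowest level and largest difference in each gene, and every call) were chosen with earlier results of these data known. Equal weighting of CpGs for the group differences and leaving out CpGs within 2000 bp of a start were added after seeing the data.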

Additional observations from a re-analysis of the deposited data

How the results depend on the processing

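Of 294 alternative values, 260 kept their direction and their side of the threshold, counting paralogue differences with 1 embryo left out by direction alone. With control against parthenote differences, edgeR, limma and DESeq2 gave no call in any of the 9 sets under any alternative, while all 9 passed Fisher's exact test on summed reads, with unchanged differences (7.22, 3.92, 3.26, -4.52, -6.60, 4.44, 5.95, 3.36 and 4.0 points, in the order promoter, exons, introns of PON1, PON2 and PON3). The direction turned for the PON2 promoter with equal weight per CpG (1.00), for PON2 exons on the plus strand (1.87) and without CpGs near the start (0.29), for the PON3 promoter on the minus strand (-2.12) and with a window around the start (-2.16), and for PON3 exons without control 1 (-0.87; leaving out 1 embryo gave -0.87 to 6.20). Calls among the member CpGs were 11 by Fisher's test and 0 to 2 with 1 embryo left out: 2 without control 2 (both in PON3), 1 without parthenote 1 (PON1) and 1 without parthenote 2 (PON2), each at a CpG with a sign of a variant. Window calls were 15 by Fisher's test and 0 to 1 with 1 embryo left out (1 without control 2, in PON3).

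With the replicate block, 1 member CpG was called (chr9:74993171 in PON3, adjusted p = 0.0087) and no window or set. The replicate numbers did not pair the embryos: same-numbered deviations correlated at 0.19, 0.19 and -0.28 over windows, and not every embryo correlated best with its own number.

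Of the paralogue differences, PON1 minus PON3 introns turned with the authors' corrected totals (-0.66), without variant signs (-1.68, adjusted exact permutation p = 0.031), on the minus strand (-0.032), without CpGs near the start (-0.28) and with 1 embryo left out (-0.23 to 0.69). PON1 minus PON3 promoters were -6.90 on the minus strand (adjusted exact permutation p = 0.141). Without CpGs near the start, PON1 minus PON2 was 1.28 in exons and -1.95 in introns, PON3 minus PON2 was -3.88 and -1.67, and PON1 minus PON3 exons were 5.16. With 5 embryos the sign-flip test cannot go below 0.0625, and the 8 called pairs then had adjusted exact permutation p of 0.0703. Depth limits the PON3 5′ UTR, with 14 to 116 reads over 9 CpGs and as few as 3 reads in the first 250 bp.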

Other observations

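The spacers between the genes were methylated like the gene bodies. The 16 CpGs of the deposited table between PON1 and PON3 outside the family were at 78.1%, 92.5% and 92.2% in controls and 91.9%, 91.0% and 92.3% in parthenotes, with control 1 alone low. The 48 CpGs between PON3 and PON2 were at 80.4% to 91.8%.

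The called CpG nearest to PON2 outside the family was chr9:75081917, 30476 bp upstream of its start and intergenic in the deposited annotation. It was at 0%, 2.63% and 0% in controls and 77.5%, 0% and 87.8% in parthenotes, on 17 to 49 reads (adjusted p = 0.0085, edgeR). Parthenote 2 was at 0 with the controls. The CpG carried the sign of a variant through a strand without a call, which few reads can also give. Opposite-strand reads showed A in 1 of 41 in parthenote 1 and in 0 reads of the other embryos. The CpG was singled out after its values had been seen.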
